A study of Drosophila melanogaster with 6 samples.

Results

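The tubulin genes of Drosophila were followed through mRNA decay in whole embryos. The members were chosen by name, as the 9 genes alphaTub84B, alphaTub84D, alphaTub85E, betaTub56D, betaTub60D, betaTub85D, betaTub97EF, gammaTub23C and gammaTub37C, of 13171 genes with a probe on the array. They were read by 17 probes on 21 spots. Of the 9 genes, 8 passed the filter on dim probes and entered tests over 9672 genes. The testis isotype betaTub85D did not pass it and is described by its signals.

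Microtubules are polymers of heterodimers of alpha-tubulin and beta-tubulin, and gamma-tubulin, in a ring complex at centrosomes and other organising centres, starts their growth. Flies carry several genes of each class, called isotypes, whose proteins are closely alike but whose expression differs between tissues. Tubulin mRNAs are known from mammalian cells to be degraded when free tubulin dimers accumulate, so their decay has long been studied.

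Of the genes, 4 were set apart as ubiquitous. These are alphaTub84B and alphaTub84D, which encode nearly the same alpha-tubulin, betaTub56D, the main beta-tubulin of the early embryo and the nervous system, and gammaTub23C, the somatic gamma-tubulin. The tissue-restricted genes are alphaTub85E, betaTub60D, the beta-tubulin of the developing mesoderm and muscle, and betaTub97EF. The germline genes are betaTub85D, the beta-tubulin of sperm axonemes, and gammaTub37C, the gamma-tubulin of the ovary and the early divisions. On the RefSeq Release 6 assembly, alphaTub84B, alphaTub84D, alphaTub85E, betaTub85D and betaTub97EF lie on chromosome arm 3R, betaTub56D and betaTub60D on 2R, and gammaTub23C and gammaTub37C on 2L.

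TU-decay tags new RNA with a 1-hour pulse of 4-thiouridine, and the purified tagged RNA is measured again after a chase with untagged uridine. All samples were wildtype whole embryos of stage 12 to 15 from the UAS-T.g.UPRT strain with no GAL4, so the transgene had no driver and the tag entered all tissues. The pulse used 1 mM 4-thiouridine and the chase 10 mM uridine, both at 30°C, and several collections were pooled for each RNA. In the U+actD series the chase also held actinomycin D, which blocks transcription, and in the uridine-only (UO) series it did not. In each series the pulse, the 1-hour chase and the 3-hour chase were measured on 1 array apiece. Comparing the series asks whether RNA tagged during the chase changes the measured decay.

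No group held replicate arrays. The error therefore came from how far each series strayed from the time course fitted to both, and 6 arrays set the limit of precision. Net signal is the mean intensity of a spot minus its local background. Its median over all spots was 174 to 1366 on the U+actD arrays and 51 to 80 on the UO arrays. A probe counted as above background when it passed the 95th percentile of 153 negative control spots, and as saturated when at least 50% of its pixels were at the scanner maximum. The UO arrays were dimmer, and their local background was listed as 0 for 46.0% to 54.7% of spots. Signals were scaled within each series on spike-in transcripts, so levels were not compared between series or between probes. The scanner files and the authors' normalized table held different UO values. For the 7 tubulin probes in both, the table was 1, 1.92 and 1.77 times the U+actD scanner signal, the same for every probe, but 0.773 to 9.18 times the UO pulse signal. Which UO source holds the labelled arrays was not settled, and UO changes are given from both. Markers of neurons (elav, Syt1), glia (repo), muscle (Mef2, Mhc, Tm2) and midgut (GATAe) were above background on all 6 arrays. So were those of epidermis (grh, cora), blood cells (Pxn) and germ cells (vas, ovo). The neuron marker nSyb and the blood cell marker srp passed on 5 arrays, all but the UO 3-hour array. The germ cell marker nos had no probe. Several tissues of the whole embryo were thus represented.

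Saturation of alpha-tubulin and beta-tubulin spots limited what could be measured. Of 102 pairs of a tubulin probe and an array, 12 were saturated, in 4 probes of alphaTub84B, betaTub56D and betaTub60D. In U+actD, 4 tubulin probes were saturated on the pulse array and 2 on each chase array, against 2, 2 and 0 in UO. A probe saturated at the pulse gives only a lower bound for its fall, and one saturated throughout gives none. Of the 9 genes, 9, 9 and 7 had a probe above background on the U+actD pulse, 1-hour and 3-hour arrays, and 8, 7 and 7 in UO.

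**Figure D1:**
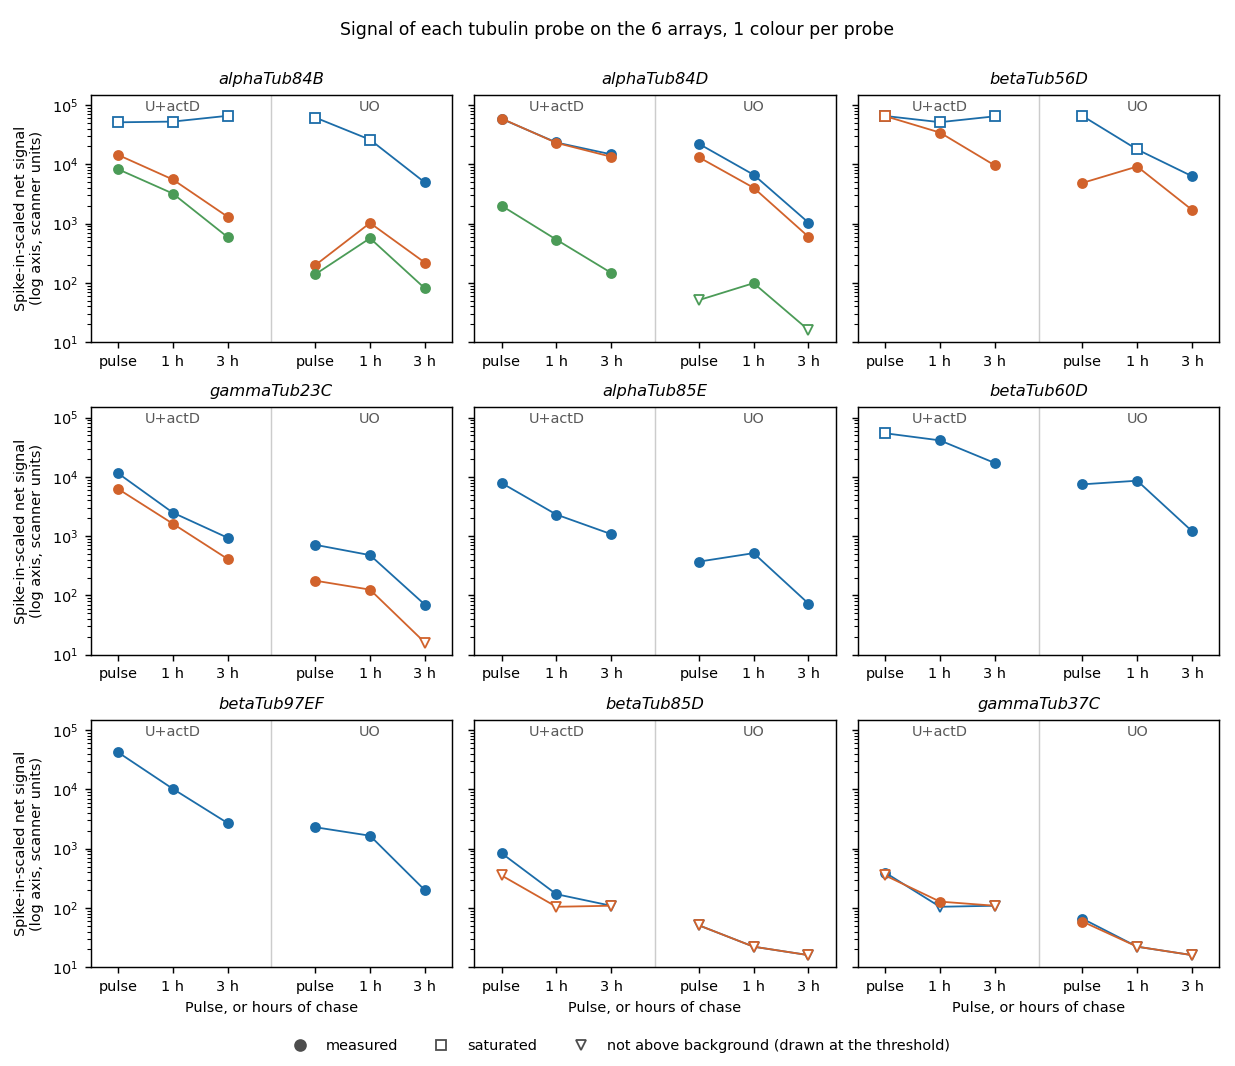
Spike-in-scaled net signal (log axis, scanner units) of every tubulin probe on the pulse, 1-hour and 3-hour arrays of U+actD (left) and UO (right), 1 colour per probe in the order of the text; squares are saturated, triangles are not above background and stand at the threshold. The probes of gammaTub23C fall side by side, whereas the first probe of alphaTub84B stays saturated in U+actD while its other probes fall to 9.05% and 7.16% of the pulse.

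alphaTub84B, the major alpha-tubulin of most tissues, gave opposite pictures depending on the probe. Its first probe had net signals of 51022, 64337 and 65196 at the U+actD pulse, 1-hour and 3-hour chase, and of 61438, 63204 and 15391 in UO. It was saturated on every array except the UO 3-hour chase, where its scaled signal was at least 12.5-fold below the pulse. In U+actD no fold can be given for it. The second probe was unsaturated throughout and had net signals of 14400, 6793 and 1294 in U+actD, against 198, 2487 and 685 in UO. The third had 8263, 3936 and 587 in U+actD, against 139, 1375 and 252 in UO. By net signal, both unsaturated probes were highest at the pulse in U+actD and lowest at the pulse in UO.

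After spike-in scaling, the second probe of alphaTub84B stood at 38.5% of its pulse level after 1 hour and 9.05% after 3 hours in U+actD, against 516% and 111% in UO. The third probe stood at 38.8% and 7.16% in U+actD, against 407% and 58.0% in UO. In U+actD both unsaturated probes fell to like shares of the pulse. In UO both were several-fold above the pulse after 1 hour, but after 3 hours one lay above it and the other below. In the authors' table alphaTub84B is represented by the saturated probe, with 51022, 123527 and 115162 in U+actD, against 47483, 80178 and 65324 in UO. The U+actD chase values of the table exceed the scanner maximum because they are clipped signals times a factor.

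alphaTub84D, the near-twin of alphaTub84B, had no probe past the saturation limit, but its 2 bright probes had 37% and 36% of their pixels at the scanner maximum in the U+actD pulse sample and 0% in all others. Its first probe had net signals of 58439, 28570 and 14594 in U+actD, against 22159, 16190 and 3242 in UO. Its second had 59113, 28186 and 13291 in U+actD, against 13138, 9758 and 1871 in UO. These 2 probes stood at 25.2% and 22.7% of the pulse after 3 hours of chase in U+actD, against 4.68% and 4.56% in UO. So here the lower share was the one without actinomycin D, the reverse of the order seen with the unsaturated probes of alphaTub84B. The clipped pixels lower the U+actD pulse signal, so the U+actD shares may be too high. In the authors' table, which takes the second probe, alphaTub84D stood at 39.7% of the pulse after 3 hours in U+actD, against 27.6% in UO. The third, dimmer probe stood at 7.36% of the pulse after 3 hours in U+actD, and was not above background on the UO pulse and 3-hour arrays. The coding sequences of both genes are known to be very alike, and how far a probe of one reads RNA of the other was not tested.

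betaTub56D was saturated at both pulses. Its first probe had net signals of 65273, 62891 and 63872 in U+actD and 65409, 43182 and 19654 in UO, and only the UO 3-hour chase was unsaturated, at least 10.4-fold below the pulse. On the UO 1-hour array this spot had a local background of 20148, so that a foreground of 63330 became the net signal of 43182. The second probe had 64950, 42035 and 9497 in U+actD, against 4841, 22277 and 5313 in UO. It was saturated only at the U+actD pulse, and its fall there was at least 1.90-fold after 1 hour and at least 6.79-fold after 3 hours. In UO the second probe was at 189% of the pulse after 1 hour and 35.1% after 3 hours.

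gammaTub23C, which encodes the gamma-tubulin of somatic centrosomes, gave like values at both of its probes within a series, but after 1 hour it stood much lower in U+actD than in UO. Its first probe had net signals of 11516, 3057 and 932 in U+actD, against 713, 1162 and 218 in UO. After scaling this was 21.6% and 8.15% of the pulse in U+actD, against 67.0% and 9.79% in UO. The second probe stood at 25.9% and 6.57% of the pulse in U+actD. In UO it stood at 70.6% after 1 hour and was not above background after 3 hours, at least 11.1-fold below the pulse. No probe of the gene was saturated.

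The tissue-restricted isotypes each had 1 probe spotted in duplicate. alphaTub85E had mean net signals of 7876, 2835.5 and 1072 in U+actD, against 371, 1255 and 227.5 in UO. This was 29.4% and 13.7% of the pulse in U+actD, against 139% and 19.6% in UO. betaTub60D had 54400, 50570 and 16995.5 in U+actD, against 7471, 20936 and 3785.5 in UO. The U+actD pulse of betaTub60D was saturated, so its fall of at least 3.18-fold after 3 hours is a bound. After 1 hour the measured fall was 1.32-fold. On that array 19% of its pixels were at the scanner maximum too, so the 1-hour fall is no strict bound. In UO its level was 115% of the pulse after 1 hour and 6.16-fold below it after 3 hours. betaTub97EF, a beta-tubulin found among other places in gut and blood cells, had 42397.5, 12577 and 2690 in U+actD, against 2302.5, 4026.5 and 624 in UO. It stood at 24.2% and 6.39% of the pulse in U+actD, against 71.9% and 8.68% in UO. Over 18 pairs of duplicate spots of these 3 genes, the log2 gap between the spots of a pair was 0.01 to 0.85 with a median of 0.15.

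The germline isotypes were near background. The first betaTub85D probe had net signals of 840.5, 209.5 and 87.5 in U+actD, against 26, -14.5 and 30.5 in UO, and was above background only at the U+actD pulse and 1-hour chase. There it fell 4.92-fold, and it was at least 7.71-fold below the pulse after 3 hours. Its other probe was not above background on any array. The first gammaTub37C probe had 395, 123 and 94 in U+actD, against 66, -8 and 41 in UO, and passed the threshold at both pulses only. Its second probe passed on the U+actD 1-hour array and the UO pulse array. Testis markers were as faint and as uneven: aly, can, Mst87F, dj and bam were each above background on 2 to 4 of 6 arrays, with at most 766.5 in net signal. The ovary marker Vm26Aa was above background on 3 arrays and Cp36 on 1. The part of cross-hybridisation or local background in these faint signals was not tested.

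Changes over both series were tested with limma. After the 3-hour chase the scaled signal of all 8 tubulins tested was lower than at the pulse, but 98.6% of all 9672 genes were called lower and 0.0207% higher in that comparison, so the count says nothing particular about tubulins. The log2 changes were -3.75 for betaTub97EF, -3.59 for gammaTub23C, -3.07 for alphaTub84D and -2.61 for alphaTub85E. They were smaller for betaTub60D at -2.15, gammaTub37C at -1.95, betaTub56D at -1.92 and alphaTub84B at -1.86. The standard error was 0.71 for every gene, because limma pooled the error over all genes. The largest adjusted p among the 8 was 0.0093 (limma, Benjamini-Hochberg). With 1 array per group, this p does not measure a spread between replicates. The 3 genes with saturated probes and gammaTub37C, which was at the threshold in the chase, had the 4 smallest changes. The part of clipping and of the threshold in that order was not tested. Because gammaTub37C passed the filter on dim probes only at the pulses, its fall was fixed in advance. With the saturated probe of alphaTub84B left out, the change of this gene was -1.98 instead of -1.86, but the series moved in opposite directions. The U+actD change went from -2.30 to -3.63, and the UO change from -1.43 to -0.32. From the table of the authors, 5 of 7 tubulins were called lower (94.8% of genes were), betaTub56D was not called, and alphaTub84B was called higher at 0.82 ± 0.32 (SE; adjusted p = 0.043, limma), as were 0.0506% of genes. The table value of alphaTub84B comes from its saturated probe. In the scanner files, leaving out the UO 3-hour array left fewer tubulins called lower, and fewer of all genes.

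After the 1-hour chase no tubulin was called in either direction, against 0.445% of genes called lower and 0.0% called higher (limma). At an unadjusted threshold of 0.05, gammaTub37C alone was lower, against 29.9% of genes. It passed the filter on dim probes only at the pulses, and its chase signals were set to the threshold. A fall of gammaTub37C was thus fixed in advance and is no test result. The log2 changes were 0.07 for alphaTub84B, -0.10 for betaTub60D, -0.56 for betaTub56D and -0.65 for alphaTub85E, and they were between -1.74 and -1.18 for the other 4 genes (SE 0.71). In the scanner files all 8 genes were below their pulse level in U+actD at this time, as were 98.1% of genes, whereas 5 of 8 were below it in UO, as were 84.5% of genes. The 3 genes above it in UO were alphaTub84B, alphaTub85E and betaTub60D. In the authors' table the UO directions of several genes were the other way, with log2 changes at 1 hour of -1.33 for alphaTub85E, -0.37 for betaTub60D and 0.21 for alphaTub84D, whereas alphaTub84B was above the pulse there too, at 0.76. Directions in UO at 1 hour thus hang on the source.

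Over all genes the median log2 change was -1.84 after 1 hour and -3.16 after 3 hours in U+actD, against -0.67 and -2.81 in UO. To take this common fall out, each array was centred on the median level of its genes. A relative change of 0 then means that a gene moved by as much as this array median. It is not the middle of the genes' own relative changes, whose medians were 0.04 and 0.19 in U+actD, against -0.14 and 0.13 in UO. On this scale alphaTub84B had log2 changes of 0.98 after 1 hour and 1.05 after 3 hours in U+actD, against 1.58 and 1.51 in UO. betaTub56D stood at 1.25 and 1.96 in U+actD, against 0.05 and 0.50 in UO. betaTub60D stood at 1.48 and 1.69 in U+actD, against 0.73 and 0.31 in UO. Its U+actD value at 3 hours is an upper limit, because its only probe was saturated at that pulse. On the U+actD 1-hour array 19% of its pixels were at the scanner maximum too, so the 1-hour value is no strict limit. The values of alphaTub84B and betaTub56D include saturated probes in both series. gammaTub23C was at -0.20 and -0.42 in U+actD, against -0.01 and -0.47 in UO. betaTub97EF was at -0.17 and -0.61 in U+actD, against 0.05 and -0.59 in UO. At 3 hours these last 2 genes lay below 0 in both series, whereas at 1 hour in UO they stood at the 58.7th and 62.9th percentile of all genes.

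Over both series the relative change at 3 hours was 1.28 ± 0.40 for alphaTub84B, 1.23 ± 0.49 for betaTub56D, 1.20 ± 0.43 for gammaTub37C and 1.00 ± 0.46 for betaTub60D (log2, SE), the last resting on the saturated U+actD pulse. It was -0.60 ± 0.38 for betaTub97EF and -0.45 ± 0.38 for gammaTub23C. No tubulin passed the limma test after adjustment, and neither did any other gene (0.0% in each direction at 1 and at 3 hours). At an unadjusted threshold of 0.05, 3 of the 8 tubulins were higher at 3 hours, against 10.6% of genes, and 2 at 1 hour, against 1.4%. None was lower, against 0.631% and 0.289%. The 2 at 1 hour were alphaTub84B and betaTub60D, whose values include saturated probes. With those probes left out, alphaTub84B did not pass at 1 hour (unadjusted p = 0.051, limma) and betaTub60D had no probe left. The 3 at 3 hours were alphaTub84B, betaTub56D and gammaTub37C. The first 2 of these hold saturated probes, and the chase signals of gammaTub37C were not above background and were set to the threshold. With saturated probes left out, alphaTub84B was at 1.15 ± 0.68 at 3 hours, the mean of -0.28 in U+actD and 2.58 in UO.

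In the authors' table alphaTub84B was called higher relative to the array median, at 3.33 ± 0.33, and so was betaTub56D, at 2.80 ± 0.39 (SE; adjusted p = 0.040 for both, limma). There 1.47% of genes were called higher and 0.127% lower. Both genes enter that table through probes that were saturated on 5 of the 6 scanner arrays. Its values for gammaTub23C were -0.19 in U+actD and -0.24 in UO at 3 hours, and for betaTub97EF -0.54 and -0.34. For alphaTub84D the table had 1.29 in U+actD and 0.55 in UO, where the scanner files had 0.72 and -0.58.

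**Figure D2:**
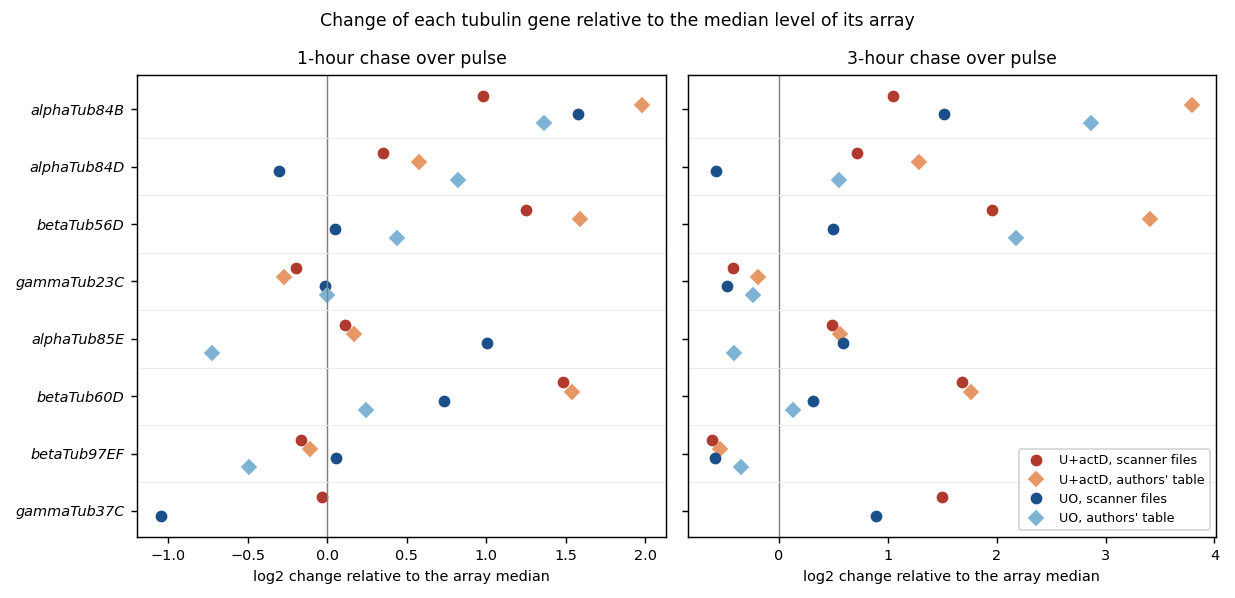
log2 change of each tubulin gene relative to the array median after the 1-hour (left) and 3-hour chase (right), from the scanner files (circles) and the authors' table (diamonds), U+actD in red and orange and UO in blue. gammaTub23C and betaTub97EF stay close to one another across sources at 3 hours, between -0.61 and -0.19, while alphaTub84B spans 1.05 to 3.80.

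Whether decay differed between the series was tested as a difference in slope over chase hours (log2 per hour, U+actD minus UO, after equal mean ratios). No tubulin was called by limma, against 1.77% of genes lower and 3.29% higher in U+actD, nor did any pass an unadjusted threshold of 0.05, which 10.5% and 11.8% of genes did. The differences were 0.41 ± 0.24 for betaTub56D, 0.41 ± 0.24 for betaTub60D and 0.39 ± 0.24 for alphaTub84D (SE), the last with an adjusted p of 0.35 (limma). All 3 of these genes had probes with clipped pixels at the U+actD pulse. The differences were 0.12 ± 0.24 for gammaTub37C, 0.01 ± 0.24 for gammaTub23C, 0.00 ± 0.25 for alphaTub85E, -0.02 ± 0.24 for betaTub97EF and -0.15 ± 0.24 for alphaTub84B. With saturated probes left out, alphaTub84B was at -0.88 ± 0.28, with an adjusted p of 0.14 (limma). The fit left 1 residual degree of freedom per gene, and limma combined its error with that of all genes. The standard errors were 0.24 to 0.28 log2 per hour, so the uncalled genes are not shown to decay alike in both series.

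By isotype group, 3 of the 4 ubiquitous genes had a relative change above 0 after 3 hours in U+actD, against 58.1% of all genes, with a median relative change of 0.89. In UO 2 of 4 did, against 55.8%, with a median of 0.01. Of the 3 tissue-restricted genes, 2 lay above 0 in both series, with medians of 0.49 in U+actD and 0.31 in UO. These counts changed when probes saturated on any array were left out, which removed betaTub56D and betaTub60D altogether. Among the genes that remained, only alphaTub84B in U+actD changed sign, from 1.05 to -0.28. In that setting 1 of 3 ubiquitous genes lay above 0 in each series, with medians of -0.28 in U+actD and -0.51 in UO. Of the tissue-restricted genes 1 of 2 did, with medians of -0.07 in U+actD and -0.04 in UO. From the authors' table the ubiquitous genes had medians of 2.35 in U+actD and 1.36 in UO, and the tissue-restricted genes 0.56 in U+actD and -0.34 in UO. Within each group the scanner values over all probes ranged widely, between -0.42 and 1.96 among ubiquitous genes and between -0.61 and 1.69 among tissue-restricted genes in U+actD. The groups therefore overlapped, and each held 1 gene below 0 in U+actD, gammaTub23C among the ubiquitous and betaTub97EF among the tissue-restricted. Of the germline genes gammaTub37C alone was fitted, at the threshold.

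Half-lives were fitted to the pulse and both chases of a series by the exponential model, and a fit was taken as adequate at an adjusted R2 of at least 0.75. Over the adequately fitted genes, 6727 in U+actD and 7529 in UO of 9672, the median was 54.3 min in U+actD and 57.8 min in UO. An adequate fit was reached by 7 of 8 tubulins in U+actD and by 4 of 8 in UO. gammaTub23C had 50.1 min in U+actD and 50.9 min in UO. betaTub97EF had 47.2 min in U+actD and 49.0 min in UO. Both genes had shorter half-lives than these medians in both series, and the half-lives of each gene in U+actD and UO were within 2 min of one another. alphaTub84D had 72.2 min in U+actD, the 83.2nd percentile of adequately fitted genes, and 50.2 min in UO, the 23.7th. Its U+actD pulse was partly clipped, and its dim probe was set to the threshold at the UO pulse and 3-hour chase. The bright probes alone gave 97.4 and 89.9 min in U+actD, the first without an adequate fit, at an adjusted R2 of 0.72. In UO the bright probes gave 41.3 and 40.9 min.

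betaTub56D had 133 min in U+actD and 71.6 min in UO, but both values include its first probe. That probe was saturated throughout U+actD and on the UO pulse and 1-hour arrays. The other betaTub56D probe alone gave 65.2 min in U+actD, an upper limit because the pulse was saturated. In UO this other probe gave 99.2 min without an adequate fit, at an adjusted R2 of 0.13. alphaTub85E had 66.9 min and betaTub60D 106 min in U+actD, and neither had an adequate fit in UO. The saturated pulse makes the betaTub60D value an upper limit too. Whether these 2 genes could be fitted depended on the source and the scaling. In UO both had adequate fits in the authors' table, at 66.1 min for alphaTub85E and 76.3 min for betaTub60D, and after arrays were scaled to equal trimmed means, at 67.3 and 61.8 min. In U+actD the betaTub60D fit was inadequate in both, with adjusted R2 values of -0.13 in the table and 0.56 after equal trimmed means. alphaTub84B had 79.2 min in U+actD over its 3 probes, but 52.7 and 47.6 min from the unsaturated probes alone. In UO its unsaturated probes gave no adequate fit, with adjusted R2 values of -0.96 and -0.60, while its saturated probe gave 49.5 min. From the authors' table gammaTub23C had 64.3 min in U+actD and 66.7 min in UO, and betaTub97EF had 56.1 min in U+actD and 66.5 min in UO, beside medians over adequately fitted genes of 67.0 min in U+actD and 72.4 min in UO. alphaTub84B showed no fall in either series of the table.

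**Figure D3:**
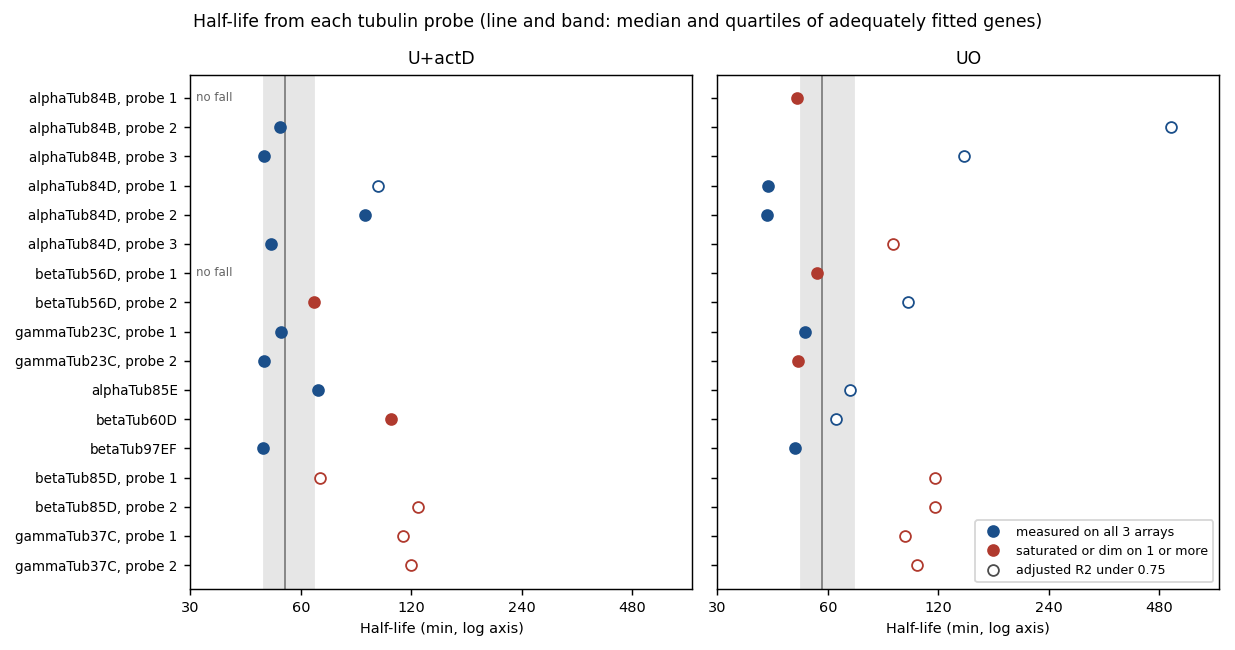
Half-life (min, log axis) fitted to each tubulin probe in U+actD (left) and UO (right); blue probes were measured on all 3 arrays, red ones were saturated or dim on 1 or more, and open circles had an adjusted R2 under 0.75. The line and band give the median and quartiles of the adequately fitted genes, 54.3 min (47.5 to 65.0) in U+actD and 57.8 min (50.6 to 70.8) in UO, and both gammaTub23C probes lie between 47.5 and 52.9 min.

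Probes of a gene disagreed widely in alphaTub84B, betaTub56D and alphaTub84D, and little in gammaTub23C. After 3 hours in U+actD the log2 changes of the 3 alphaTub84B probes spanned 4.17, a range exceeded by 0.548% of 3284 genes with several probes, whose median was 0.65. In UO they spanned 3.79, exceeded by 0.670% of those genes. betaTub56D spanned 2.74 in U+actD and 1.87 in UO, and alphaTub84D spanned 1.77 in U+actD and 2.78 in UO. The probes of gammaTub23C differed by 0.31 in U+actD and 0.11 in UO, less than the medians of 0.65 and 0.85 over those genes. The UO value of its second probe after 3 hours was the threshold. The alphaTub84D ranges lay between its bright probes, partly clipped at the U+actD pulse, and its dim one, which in UO was set to the threshold at the pulse and after 3 hours, so that the UO range includes a probe for which no fold can be given.

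The genes whose 4 relative changes (both chases, both series) lay nearest to those of a tubulin were sought by Euclidean distance in log2 units over 4 values each. For gammaTub23C these were Dd at a distance of 0.07, POSH at 0.08 and hfw at 0.13, and none of their probes was saturated. Dd stood at -0.24 and -0.47 in U+actD and at -0.02 and -0.45 in UO. For betaTub56D they were CG3457, Irk3 and Sodh2, at 0.25 to 0.34. For alphaTub84B they were TwdlT, CG14440 and CG13297, at 0.18 to 0.36. With the saturated probe of alphaTub84B left out, they became slbo, CG10211 and CG14395, at 0.49 to 0.51, so the neighbours of this gene hang on the clipped probe.

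Other genes of the microtubule system were read from 8 lists. The lists were described by counts and medians of the relative change at 3 hours. In the scanner files no gene of any list was called there by limma (0.0% of all genes were). From the authors' table alphaTub67C alone of the listed genes was called higher, at 2.34 ± 0.34 (SE; adjusted p = 0.040, limma). There 1.47% of all genes were called higher. The folding machinery of tubulin includes the CCT chaperonin, a ring that folds actin and tubulin, and prefoldin with the tubulin cofactors, which hand over and assemble the dimer. All 8 CCT genes were measured, with medians of 0.12 in U+actD and -0.04 in UO, and CCT3 was nearest the middle of the list at 0.05 ± 0.45 (SE). The 13 prefoldin and cofactor genes had medians of 0.69 in U+actD and -0.17 in UO, and 8 and 5 of them lay above 0. From the authors' table their medians were 0.77 in U+actD and 0.30 in UO, so the sign in UO turned with the source. Tbcb, the cofactor that takes up alpha-tubulin, was at 0.24 ± 0.42. In these lists, as in the tubulins themselves, the U+actD median was the higher one in both sources, a difference that was not tested.

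Of the list for the gamma-tubulin ring complex, the nucleating partners of gammaTub23C, with the centrosome protein cnn, 7 of 8 genes were measured. Their medians were -0.29 in U+actD and -0.42 in UO, with 2 of 7 above 0 in each series. Grip128, a ring subunit, was nearest the middle at -0.14 ± 0.40 (SE). gammaTub23C itself was at -0.42 in U+actD and -0.47 in UO. From the table the ring complex had medians of -0.24 in U+actD and 0.14 in UO, so its place below 0 in UO did not hold there.

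Motor proteins move along microtubules, and the plus-end and associated proteins set their growth. The 17 kinesins measured of 20 had medians of -0.34 in U+actD and -0.12 in UO, with cmet, the CENP-E kinesin, at -0.05 ± 0.43 (SE). The 9 genes measured of the dynein list, which also holds dynactin subunits and dynein regulators, had medians of 0.03 in U+actD and -0.12 in UO. Nearest the middle was nudE, a dynein regulator, at 0.28 ± 0.41. In the authors' table the dynein medians were 0.27 in U+actD and 0.19 in UO. The 12 microtubule-associated and plus-end genes had medians of -0.02 in U+actD and 0.12 in UO, with Patronin, a minus-end protein, at 0.10 ± 0.38. The 9 genes for tubulin modification and severing had medians of -0.44 in U+actD and 0.33 in UO, with Atat, the tubulin acetyltransferase, at 0.00 ± 0.50. The table put this last list at -0.33 in U+actD and -0.18 in UO, so the UO medians of both the dynein and the modification genes changed sign with the source. The 8 tubulins tested had medians of 0.89 in U+actD and 0.41 in UO, beside 0.19 and 0.13 for all genes. With saturated probes left out, the 6 tubulins that remained had medians of 0.10 in U+actD and 0.02 in UO, below the 0.16 and 0.12 of all genes, and 3 of 6 lay above 0 in each series. From the authors' table the 7 tubulins had medians of 1.29 in U+actD and 0.13 in UO, beside 0.08 and 0.09 for all genes. The lead of the tubulins over all genes was not there once probes saturated on any array were left out. That setting also removed betaTub56D and betaTub60D altogether. The betaTub60D probe and the second betaTub56D probe were unsaturated on all UO arrays. The parts of clipping and of the changed set of genes in the lost lead were not tested. Of all the listed genes, the slope difference was called for Klp64D, a subunit of the axonal kinesin-2 motor, which was at -0.98 ± 0.24 (SE, adjusted p = 0.030, limma), and for alphaTub67C. Over all genes 1.77% were called lower and 3.29% higher in that comparison, so these calls say nothing particular about microtubule genes. The Klp64D call rests on relative changes in UO of 1.45 after 1 hour and 1.67 after 3 hours, where the authors' table had -1.15 and -0.62. No kinesin slope was called from the table.

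**Figure D4:**
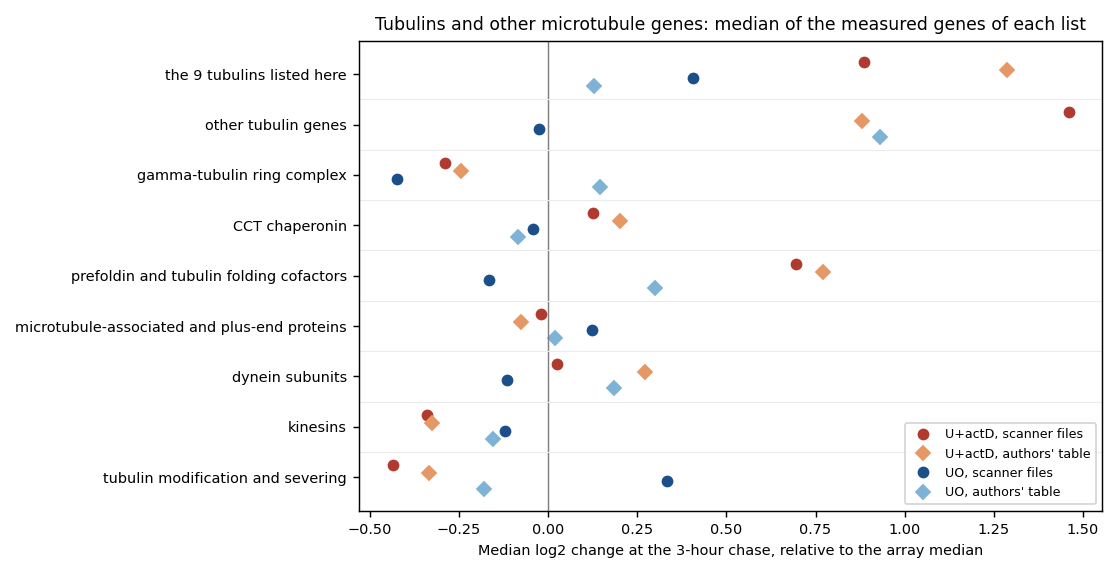
Median log2 change at the 3-hour chase relative to the array median, for the tubulins and for 8 lists of microtubule genes, from the scanner files (circles) and the authors' table (diamonds), U+actD in red and orange and UO in blue. The tubulins have medians of 0.89 in U+actD and 0.41 in UO from the scanner files, and the kinesins lie below 0 in all 4 readings.

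alphaTub67C is the alpha-tubulin that the mother supplies to the egg. Its net signals were 1171, 655 and 753 in U+actD, against 460, 364 and 75 in UO, above background on all 6 arrays and unsaturated. Relative to the array median this was 0.75 and 2.73 in U+actD, against -1.09 and -1.32 in UO. Its slope difference was 1.29 ± 0.24 (SE), with an adjusted p of 0.0096 (limma), and with saturated probes of all genes left out it was 1.31 ± 0.23 with an adjusted p of 0.072. The authors' table put alphaTub67C above 0 in both series, at 2.80 in U+actD and 1.87 in UO after 3 hours, with a slope difference of 0.30 ± 0.27. betaTub65B had 5771, 1456 and 189 in U+actD and was not above background in UO. CG7794 had 974, 440 and 31 in U+actD, against -17, 57 and 5 in UO.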

How the data were processed

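The authors purified tagged RNA, added Agilent spike-in transcripts, labelled it with Cy3 and hybridised each sample to 1 Agilent 4x44K array. Per the file headers the deposited scanner files hold foreground and local background intensity and the percent of saturated pixels of 45220 spots. The deposited table of the authors lists normalized intensity. Its U+actD columns equal the scanner net signals of the tubulin probes times 1 factor per array, and its UO columns do not. Of 32162 probes, 20679 had 1 gene, 14546 through the platform table and 6133 through names in the files, and 11483 had none. Scanner software, genome build and any filter on the deposited values are not given in the sources used here. For normalization factors between series, the paper left out the highest and lowest 10% of ratios. When pulse samples were compared, it left below-background spots out of the mean used for normalization.

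Net signals were scaled within a series on spike-ins (4 in U+actD, 5 in UO; factors 0.815 and 1.01 for the U+actD chases, 0.411 and 0.320 for UO). Probes above background on both arrays of a time point were kept (14427 probes, 9672 genes), lower values were set to the threshold, and a gene was the mean log2 over its probes. limma 3.58.1 (R 4.3.3) was fitted to all 6 arrays with series and time point (2 residual degrees of freedom, 1 for slopes, each array assumed to vary like the others) and Benjamini-Hochberg adjustment at 0.05. limma combines the error of each gene with that of all genes, so its p-values rest on more than these degrees of freedom. The fits were tested on simulated data. For half-lives the natural log of signal was regressed on chase hours (Python 3.11.15, pandas 2.3.3, numpy 2.4.6). The authors' table gave 7902 genes. Every member is named. Further names were the 3 nearest genes of alphaTub84B, betaTub56D and gammaTub23C and, per list, the gene nearest the median and any called; the slope calls in the lists were named after their values were seen. Members and lists were chosen with earlier results of these data known.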

Additional observations from a re-analysis of the deposited data

Results flagged for a closer look

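The relative log2 change of alphaTub84D had opposite signs in the series at both chase times, with values after 3 hours of 0.72 in U+actD and -0.58 in UO from the scanner files. The series were 1 array per time point, and the slope difference of 0.39 ± 0.24 (SE, log2 per hour) was not called by limma, with an adjusted p of 0.35. For alphaTub84D these values include a dim probe, set to the threshold at the UO pulse and 3-hour chase. Its bright probes were partly clipped at the U+actD pulse. In the authors' table its relative change was above 0 in both series, at 1.29 in U+actD and 0.55 in UO.

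The slope of alphaTub67C, a maternal alpha-tubulin outside the 9 genes, differed between the series by 1.29 log2 per hour (U+actD minus UO, adjusted p = 0.0096, limma). It was 0.30 ± 0.27 (SE) in the authors' table, where the difference was not called.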

How the results depend on the processing

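With 1 array per group, calls hang on single arrays and on the scaling. Pulse and chase arrays were matched only through the series, used as a block. Every group holds 1 array and the labels give no shared replicate numbers, so no finer pairing was possible. Local background of 0 on the UO arrays, clipped signals and few spike-ins limit every value, and the cause of a change between settings was not tested unless named.

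At the 3-hour chase 9536 genes were called against the pulse, and 0 when arrays were scaled to their 75th percentile, which removes the common fall, or without the series as a block. At the 1-hour chase 43 were called, against 0 from the authors' table, with no filter on dim probes, at the 75th percentile or without the block, 2 with probes above background on all 6 arrays and 17 with normexp. Leaving out 1 array gave 0 to 86 calls at 1 hour, with 0 without either 1-hour array, 86 without the U+actD pulse and 25 without the UO pulse. For the relative change it gave 0 to 160 calls at 1 hour and 0 to 790 at 3 hours, where 0 were called on all arrays and 126 in the authors' table. Without the U+actD pulse 160 and 79 were called at 1 and 3 hours, without the U+actD 1-hour array 21 and 9, and without the UO 1-hour array 1 and 9. Without the UO pulse 144 and 790 were called, betaTub56D at 1.89 among the 790. For the slope difference 489 genes were called, against 216 in the authors' table, 0 with probes above background on all 6 arrays, 1497 with normexp, 11 with saturated probes left out, 5 with the probe of highest mean signal and 78 from foreground without subtraction, a setting added after seeing the data. Leaving out an array could not be fitted for slopes.

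How many tubulins, and how many of all genes, were called lower at 3 hours hung on the array left out. Both numbers were smallest without the UO 3-hour array.

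Over all these settings, 51 log2 values of single tubulins changed sign against those reported. Scaled to the 75th percentile, the changes at 1 hour were 0.079 for alphaTub84D, 0.61 for alphaTub85E, 0.70 for betaTub56D and 1.16 for betaTub60D, and at 3 hours 1.40 for alphaTub84B, 0.19 for alphaTub84D, 0.66 for alphaTub85E, 1.35 for betaTub56D, 1.12 for betaTub60D and 1.31 for gammaTub37C. Centred there, betaTub97EF had a relative change of 0.011 at 1 hour. With the values of the authors' table, the changes were 0.042 for alphaTub84D, 0.36 for betaTub56D and 0.23 for betaTub60D at 1 hour, and 0.82 for alphaTub84B and 0.28 for betaTub56D at 3 hours. The relative change of alphaTub85E at 1 hour was -0.28 there and the alphaTub84B slope difference 0.26.

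With normexp, alphaTub84B changed by -0.42 and betaTub60D by 0.0087 at 1 hour, alphaTub84D had relative changes of -0.15 and -0.23 and gammaTub37C 0.060 at 1 hour, and slope differences were 0.12 for alphaTub84B, -0.034 for alphaTub85E and -0.25 for gammaTub23C. With no filter, alphaTub84D had relative changes of -0.023 and -0.21 and alphaTub85E a slope difference of -0.0027. With probes above background on all 6 arrays, alphaTub84D had a relative change of -0.29 at 1 hour, and slope differences were -0.064 for alphaTub85E and -0.017 for gammaTub23C. With the probe of highest mean signal, alphaTub84B changed by -0.60 at 1 hour, alphaTub84D had a relative change of -0.31, and slope differences were 1.32 for alphaTub84B and -0.040 for alphaTub85E. The slope difference of betaTub97EF was 0.0025 with saturated probes left out, and from foreground alone it was -0.086 for alphaTub85E and -0.055 for gammaTub23C.

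Leaving out 1 array moved the 1-hour change between -0.68 and 0.83 for alphaTub84B, -1.64 and 0.35 for alphaTub85E, and -0.64 and 0.44 for betaTub60D. It moved the relative change at 1 hour between -0.46 and 0.51 for alphaTub84D, -0.020 and 1.31 for betaTub56D, -0.21 and 0.0003 for gammaTub23C, and -0.16 and 0.045 for betaTub97EF, and at 3 hours between -0.42 and 0.56 for alphaTub84D. Adequate half-life fits numbered 11 in both series together, 8 in the authors' table and 11 after equal trimmed means.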
